A study of Mus musculus with 6 samples.

Results

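Pericytes are mural cells that wrap capillaries, and smooth muscle cells surround arteries, veins and airways. In the lungs of mice with EGFR-driven lung cancer, 10 genes that mark these cells were read, each with at least 1 probe set of its own. They were split by role into 5 pericyte genes (Pdgfrb, Cspg4, Notch3, Kcnj8 and Abcc9) and 5 contractile genes (Acta2, Tagln, Myh11, Cnn1 and Des). All probe sets that the array's annotation gives to exactly 1 of these genes were used, 10 for the pericyte and 9 for the contractile genes, which is 19 of 45037 tested and 10 genes of 18193. The brightest probe set of each gene, by its mean over all 6 arrays, is called its lead.

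Lung RNA from 3 LC-HFD mice (high-fat diet with doxycycline) and 3 LC-RD mice (regular diet with doxycycline) was measured, with 1 Affymetrix mouse array per mouse. All 6 mice were males on a C57BL/6 background, about 6 weeks old at the start, and carried the transgenes CC10-rtTA and tet-O-EGFR-L858R. The CC10 promoter drives the doxycycline-dependent activator, which per the methods allows induction in adult lung and its respiratory epithelium. Whether mural cells expressed the mutant EGFR was not tested. Both groups received doxycycline in food (625 ppm) and drinking water (2 mg/ml), and 60% of the energy of the high-fat diet came from fat. The labels give 7 weeks of doxycycline after feeding until 8 weeks, whereas the methods give 2 weeks of diet and then 8 weeks of doxycycline. Each comparison is therefore one of diets within lungs that carry the induced oncogene. The paper reports heavier lungs, a greater tumor burden and more total and phosphorylated EGFR protein in LC-HFD than in LC-RD mice. Diet and tumor content of the lung therefore cannot be told apart in these comparisons.

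The authors deposited GCRMA log2 values, in which a difference of 1 is a 2-fold change. Lung epithelial markers were all present, with lead means from 6.06 to 13.8, and 0 of 9 leads passed between the groups (limma), or 4 lower with the methods' t-test. The Sftpc lead read 13.8 on every array, at the upper end of the scale, and so could not show an increase. Its other probe set rose by 1.45 (limma adjusted p = 0.00321). That probe set lay near the lower end of the array, at 3.79 in LC-HFD and 2.34 in LC-RD, which limits what it says of Sftpc. Sftpb, Sftpa1 and Scgb1a1 gave 0.18, -0.17 and -0.11. Spiked hybridization controls lay apart between the groups (mean log2 value 11.5 in LC-HFD and 10.0 in LC-RD), as did 18S rRNA (7.61 and 12.5). Diet and array handling therefore cannot be told apart in any difference below. In bulk lung RNA, fewer cells of a type and less RNA per cell cannot be told apart either. Errors are SDs between mice, with n = 3 per group.

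Pericytes are recruited to vessels by PDGF-B, which endothelial cells release and which PDGFRβ on the pericyte receives. Notch3 receives Notch ligands from the endothelium and maintains mural cells. Cspg4 encodes NG2, a proteoglycan on the pericyte surface. Kcnj8 and Abcc9 encode the pore and the sulfonylurea receptor of the vascular KATP channel, which couples metabolism to vessel tone. The contractile genes encode smooth muscle actin (Acta2), the actin-binding proteins transgelin and calponin (Tagln and Cnn1), smooth muscle myosin heavy chain (Myh11) and the intermediate filament desmin (Des). Their promoters are classic targets of the transcription factor SRF, which binds CArG boxes with its partner myocardin.

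Among the pericyte genes Cspg4 and Notch3 were higher in LC-HFD lungs, Kcnj8 was lower, and Pdgfrb and Abcc9 did not pass on their lead probe sets. None of the 5 contractile genes passed on its lead probe set. By probe set, 5 of 10 were higher, 1 was lower and 4 did not pass for the pericyte genes, against 1 higher, 0 lower and 8 not passing for the contractile genes. Across all probe sets 25% passed the same threshold (adjusted p under 0.05), 11.3% higher and 13.6% lower. By lead probe set, 3 of the 10 genes passed, next to 27.3% of all genes. The medians of the lead differences were 0.035 for the pericyte and 0.024 for the contractile genes, and 0.019 over all genes. With the median over the probe sets of a gene in place of its lead the pericyte value was 0.60, with 3 genes higher, and with an RNA integrity covariate the contractile value was 0.17. Only 1 probe set, of Notch3, passed with a change over 2-fold, as did 1.73% of all. The difference between the pericyte and the contractile genes was not itself tested.

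**Figure D1:**
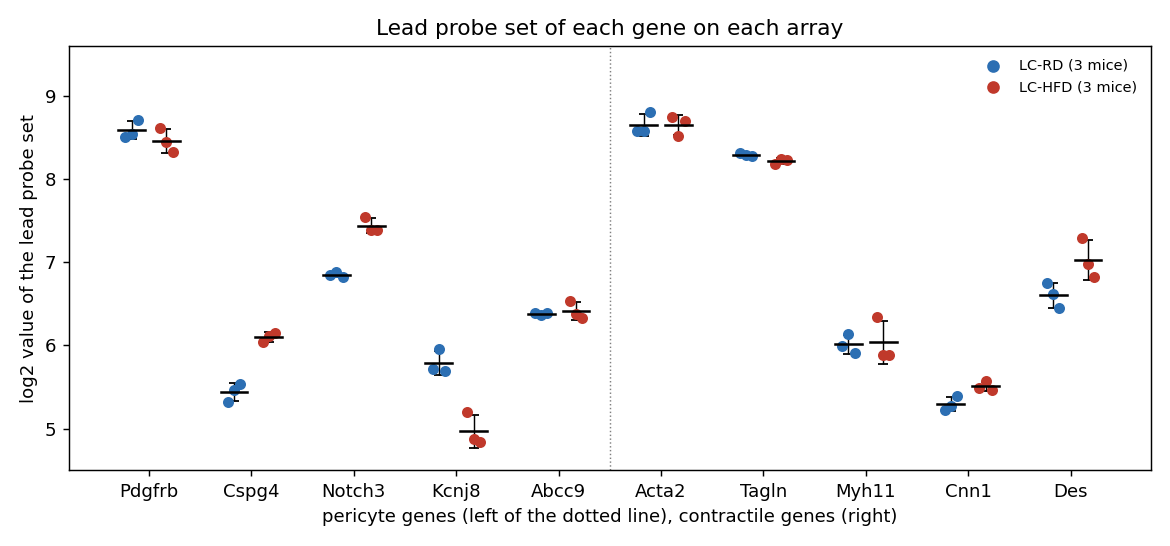
Log2 value of the lead probe set of each of the 10 genes (vertical axis). Blue points are LC-RD mice and red points LC-HFD mice, lines are means and bars are SDs of 3 mice. The groups lie apart for Cspg4, Notch3 and Kcnj8, with Kcnj8 lower in LC-HFD, and also for Tagln, Cnn1 and Des, whose differences did not pass. Heights of different genes are not comparable, because probe sets differ in response.

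Notch3 showed the largest difference among the 19 probe sets. Its lead probe set (1421965_s_at) read 7.54, 7.39 and 7.39 in the 3 LC-HFD lungs and 6.84, 6.88 and 6.82 in the 3 LC-RD lungs. Every LC-HFD value lay above every LC-RD value, and the difference was 0.59 (standard error 0.0766, limma adjusted p = 0.00254), or 1.51-fold. The second probe set (1421964_at) gave 5.99, 6.13 and 5.68 against 5.02, 4.92 and 4.59. That difference was 1.09 (standard error 0.152, adjusted p = 0.00330), or 2.13-fold. Both probe sets of Notch3 thus rose, and the second exceeded the lead by 0.50. This excess had the smallest two-sided p that 3 against 3 arrays allow (exact permutation p = 0.1, adjusted p = 0.3 over 9 pairs of probe sets).

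Cspg4 was higher on both of its probe sets as well. The lead (1450944_at) read 6.04, 6.12 and 6.15 in LC-HFD and 5.32, 5.47 and 5.53 in LC-RD. The groups did not overlap, and the difference was 0.66 (standard error 0.0848, limma adjusted p = 0.00247), or 1.58-fold. On the other probe set (1423341_at) the values were 5.65, 5.58 and 5.48 against 5.23, 4.83 and 4.87, a difference of 0.59 (adjusted p = 0.0128). The pair of probe sets differed by -0.067 in their response (exact permutation p = 0.9). The call on the second probe set was lost without LC-RD replicate 2 (0.52, adjusted p = 0.0531), with the methods' t-test (0.59, adjusted p = 0.0601) and with the RNA integrity covariate described for Kcnj8 (0.47, adjusted p = 0.142). The lead kept its call in these settings, with the covariate at 0.70 (adjusted p = 0.0297). Groups that do not overlap are common on these arrays, at 43.8% of all probe sets (22% with LC-HFD above and 21.8% with LC-RD above). Among the 19, LC-HFD lay above in 9 and LC-RD in 3.

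Pdgfrb, the receptor that defines pericytes most widely and that fibroblasts also carry, did not pass on either probe set. Its lead (1436970_a_at) read 8.61, 8.44 and 8.33 in LC-HFD and 8.51, 8.55 and 8.71 in LC-RD. The groups overlapped, and the difference of -0.13 had a 95% interval from -0.37 to 0.11. The dimmer probe set (1417148_at) read 6.45, 6.42 and 6.50 against 6.27, 6.28 and 6.28. Here the groups lay apart, but by only 0.18 (adjusted p = 0.0962). It passed with the methods' t-test (adjusted p = 0.0201), after quantile normalization (adjusted p = 0.0316) and at a minimum mean of 4 or 6 (adjusted p = 0.0394 and 0.0146). With quantile normalization or the minimum mean of 4, the pericyte count was 6 probe sets higher.

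The 2 genes of the vascular KATP channel gave different pictures. Kcnj8, the pore, was measured by 1 probe set, which read 5.20, 4.87 and 4.84 in LC-HFD and 5.72, 5.96 and 5.69 in LC-RD. All 3 LC-HFD lungs lay below all 3 LC-RD lungs. The difference was -0.82 (standard error 0.125, limma adjusted p = 0.00452), or 1.77-fold lower, the only decrease that passed among the 19. RNA integrity can be read from control genes as the 3' signal less the 5' signal, which averaged 1.65 in LC-HFD and 1.73 in LC-RD. With that value as a covariate the Kcnj8 difference was -0.70 (standard error 0.177) and the call was lost (limma adjusted p = 0.0650). The covariate did not overlap between the groups, so it cannot be separated well from diet. With it 7.9% of all probe sets passed, next to 25% without it.

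Abcc9, the regulatory subunit, had 3 probe sets that did not give 1 answer. The lead (1435752_s_at) read 6.54, 6.38 and 6.33 in LC-HFD and 6.39, 6.37 and 6.38 in LC-RD. These values overlapped, with a difference of 0.035 and a 95% interval from -0.15 to 0.22. The second (1435751_at) read 5.65, 5.73 and 5.74 against 5.08, 5.06 and 5.17, without overlap. It was higher by 0.60 (standard error 0.0732, limma adjusted p = 0.00211). The third (1420408_a_at) lay at 3.23 ± 0.266 and 2.90 ± 0.345, close to the lower end of the array, and did not pass (0.33, adjusted p = 0.254). The second probe set exceeded the lead by 0.56 in its response (exact permutation p = 0.1, the smallest possible, adjusted p = 0.3 over 9 pairs). Which part of the Abcc9 transcripts each probe set reads is not given in the tables used here. None of the 3 probe sets was lower in LC-HFD by the test, in contrast to the decrease of Kcnj8. The difference between the genes was not tested.

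**Figure D2:**
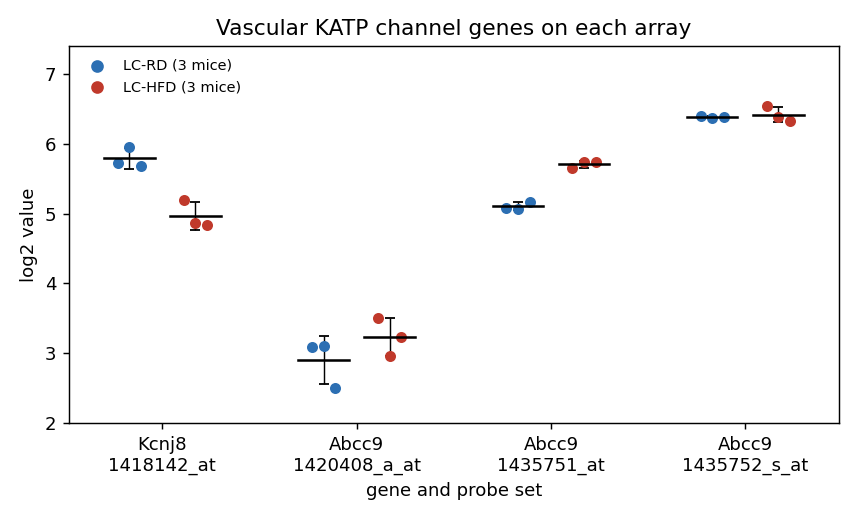
Log2 values (vertical axis) of the 1 Kcnj8 and the 3 Abcc9 probe sets. Blue points are LC-RD mice and red points LC-HFD mice, lines are means and bars are SDs of 3 mice. Kcnj8 is lower in LC-HFD, Abcc9 1435751_at is higher, and the groups overlap on the remaining Abcc9 probe sets.

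Kcnj8 and Abcc9 are neighbors on chromosome 6 of the mouse, on the same strand, with 0 genes listed between them in the RefSeq table (GRCm38.p6). Their upstream sequences are shown because these partners of 1 channel gave different results, and that of Notch3 because it changed most. Each is the 250 bases before the annotated start (RefSeq, GRCm38.p6), 5′ to 3′ on the strand of the gene. Capitals in Abcc9 mark TGGGAA, the core that the Notch partner RBPJ binds.
Kcnj8 (chr6:142571615-142571864, - strand): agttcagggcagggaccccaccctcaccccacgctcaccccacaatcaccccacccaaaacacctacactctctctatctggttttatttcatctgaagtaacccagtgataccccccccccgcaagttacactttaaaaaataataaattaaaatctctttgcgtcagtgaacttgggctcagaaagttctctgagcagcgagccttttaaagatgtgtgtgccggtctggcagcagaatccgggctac
Abcc9 (chr6:142702275-142702524, - strand): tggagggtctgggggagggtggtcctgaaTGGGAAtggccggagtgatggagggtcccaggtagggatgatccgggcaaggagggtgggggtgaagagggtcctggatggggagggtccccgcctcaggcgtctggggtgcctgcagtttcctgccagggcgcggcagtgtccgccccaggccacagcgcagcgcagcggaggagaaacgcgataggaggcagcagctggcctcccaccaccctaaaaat
Notch3 (chr17:32166891-32167140, - strand): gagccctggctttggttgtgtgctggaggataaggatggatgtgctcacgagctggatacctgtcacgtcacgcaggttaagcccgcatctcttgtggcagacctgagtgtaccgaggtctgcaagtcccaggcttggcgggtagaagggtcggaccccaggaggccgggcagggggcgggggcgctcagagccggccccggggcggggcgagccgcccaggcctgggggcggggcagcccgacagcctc
Searched on both strands, TGGGAA was found in the Abcc9 sequence, 221 bases before the start, and in neither the Kcnj8 nor the Notch3 sequence. It is present in 21.6% of 32851 upstream sequences of this length. Of the 10 genes, 7 had their sequence searched. Pdgfrb was left out of the search, and no sequence was at hand for Tagln and Myh11.

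Acta2, the most used marker of smooth muscle and of myofibroblasts, did not differ by the test. Its lead probe set (1416454_s_at) gave 8.74, 8.52 and 8.70 in LC-HFD and 8.58, 8.58 and 8.81 in LC-RD. The means were 8.65 ± 0.120 and 8.66 ± 0.132, and the difference of -0.00093 had a 95% interval from -0.24 to 0.24. A 2-fold change lies outside this interval. Its other probe sets lay near the lower end of the array, at 2.70 against 3.00 (adjusted p = 0.0851) and 2.28 against 2.24 (adjusted p = 0.743).

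The Acta2 upstream sequence is shown because it holds the SRF motif that the contractile genes are known for. Capitals mark matches to the CArG box with at most 1 mismatch in its 6 middle bases.
Acta2 (chr19:34255374-34255623, - strand): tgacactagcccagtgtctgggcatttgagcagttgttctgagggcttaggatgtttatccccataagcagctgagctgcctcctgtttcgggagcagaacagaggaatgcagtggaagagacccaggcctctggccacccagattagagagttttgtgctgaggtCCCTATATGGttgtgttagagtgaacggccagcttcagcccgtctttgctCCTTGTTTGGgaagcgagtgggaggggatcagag
Both matches, 84 and 34 bases before the start, have 1 mismatch. At least 1 such match was found in 8.59% of all upstream sequences of this length, and 2 or more in 0.670%. TGGGAA also occurred 27 bases before the start, overlapping the second match. No match to the CArG box with at most 1 mismatch was found in the sequences of Cnn1, Des, Cspg4, Notch3, Kcnj8 and Abcc9, which says only that it is not in these 250 bases.

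Tagln, an early marker of smooth muscle, also gave a narrow interval. It read 8.18, 8.25 and 8.23 in LC-HFD and 8.31, 8.29 and 8.28 in LC-RD. The LC-RD values lay slightly above, by a difference of -0.072 with a 95% interval from -0.23 to 0.087. Myh11, the most specific of the smooth muscle genes, read 6.34, 5.89 and 5.89 against 5.99, 6.14 and 5.91 on its lead (1448962_at). The groups overlapped (0.024, 95% interval -0.30 to 0.35), and LC-HFD replicate 1 was the highest of all 6. The second Myh11 probe set averaged 4.26 ± 0.305 in LC-HFD and 3.99 ± 0.105 in LC-RD (adjusted p = 0.233), but passed without LC-HFD replicate 1 (0.44, adjusted p = 0.0317).

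Cnn1 and Des had higher means in LC-HFD lungs, without passing on their leads. Cnn1 read 5.49, 5.57 and 5.46 against 5.22, 5.28 and 5.39. The groups lay apart by a small step, with a difference of 0.21 (standard error 0.0792, limma adjusted p = 0.0900). Des read 7.30, 6.97 and 6.83 against 6.75, 6.62 and 6.45 on its lead (1426731_at). The lowest LC-HFD lung was just above the highest LC-RD lung, and the difference was 0.43 (95% interval 0.10 to 0.75, adjusted p = 0.0611). The second Des probe set (1426732_at) lay low on the array, at 3.22, 3.10 and 3.55 against 2.77, 2.50 and 2.98. It passed narrowly (0.53, adjusted p = 0.0458), and lost the call without any 1 of LC-HFD replicates 1 and 3 and LC-RD replicates 1 and 2 (adjusted p up to 0.139). The Des lead, in turn, passed under 8 of 16 alternative settings, among them quantile normalization (adjusted p = 0.0271) and a filter on low values (adjusted p = 0.0390 at a mean of at least 4). Of all probe sets 23.3% passed after quantile normalization, and 42.5% of those kept by that filter did.

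**Figure D3:**
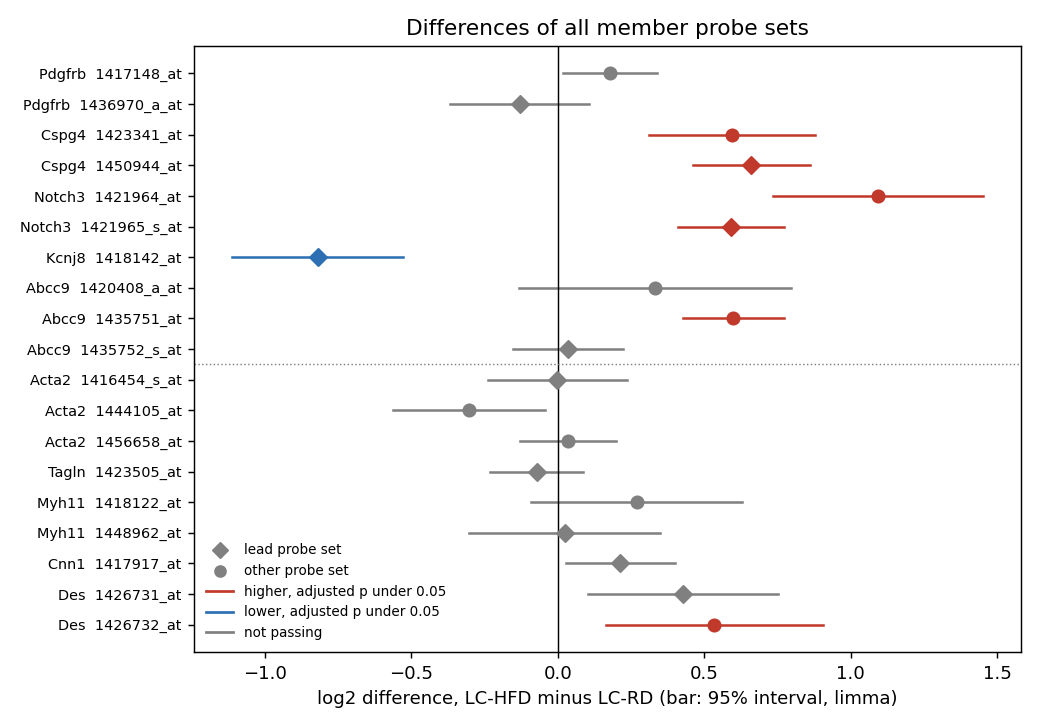
Log2 difference, LC-HFD minus LC-RD (horizontal axis), of all 19 probe sets, with 95% intervals from limma. Diamonds are lead probe sets and circles the others; red is higher and blue lower at an adjusted p under 0.05, and grey did not pass. Red points are mostly among the pericyte genes above the dotted line, where Kcnj8 is the only blue one.

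Desmin is also made by cardiac and skeletal muscle, and mouse lung holds cardiac muscle along its pulmonary veins. Counts of such lists are read next to the leads of all genes, of which 11.1% rose and 16.2% fell. Among 15 cardiac muscle genes, 14 of them with means under 6, there were 0 increases and 4 decreases, with a median difference of -0.16. The decreases numbered 2 without any 1 of the 3 LC-RD replicates. Myl7, an atrial myosin light chain, was at 4.46 ± 0.184 in LC-HFD and 5.82 ± 0.0966 in LC-RD (-1.36, limma adjusted p = 0.000537). Cardiac actin (Actc1) fell by 0.67, Tnni3 by 0.46 and Myh6 by 0.53, and Tnnt2 did not pass (-0.41, adjusted p = 0.239). Among 12 skeletal muscle genes 1 rose (Acta1, by 0.37) and 0 fell, with Ckm, Myh1 and Myh2 at 0.33, 0.15 and -0.036, and all 12 had means under 6. The increase was lost without LC-HFD replicate 3, LC-RD replicate 1 or LC-RD replicate 2 (0 genes), and 2 genes rose without LC-HFD replicate 2. The mean of the cardiac list on single arrays was at most 4.31 in LC-HFD and at least 4.48 in LC-RD.

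Other pericyte genes moved in both directions. Of 20 such genes 6 rose, 5 fell and 9 were not called. The count of 6 held in all 6 fits with 1 array left out, but the count of 5 was 2 without LC-RD replicate 1 or 2 and 3 without LC-HFD replicate 2 or LC-RD replicate 3. Rgs5, a brake on G-protein signaling that is abundant in pericytes, read 9.39, 9.29 and 9.36 in LC-HFD and 7.24, 7.13 and 7.14 in LC-RD. All 4 of its probe sets rose, by 1.39 to 2.17. Cox4i2 and Ndufa4l2, mitochondrial proteins that are enriched in pericytes, rose by 0.98 and 0.77 (limma adjusted p = 0.00123 and 0.00217). Higd1b, a mitochondrial protein that also marks pericytes, did not pass (0.047, adjusted p = 0.645).

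The remaining increases in that list, named after their values were seen, were Anpep (1.77), Itga7 (0.56) and Mcam (0.44). Anpep encodes an aminopeptidase that myeloid cells also carry, and Mcam an adhesion molecule shared with endothelium. The largest decrease was Postn, which encodes the matrix protein periostin and is also made by fibroblasts, by 0.53 (adjusted p = 0.00467). The soluble guanylate cyclase subunits Gucy1a1 and Gucy1b1, which receive nitric oxide in mural cells and were also named after their values were seen, fell by 0.42 and 0.42. With the RNA integrity covariate the counts for the list were 6 higher and 0 lower.

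Of 28 other contractile genes 4 rose, 4 fell and 20 were not called, with a median of -0.018. These shares are near those of all genes, and with the RNA integrity covariate 1 rose and 2 fell. Myl9, the regulatory light chain of smooth muscle myosin, gave -0.0048 (adjusted p = 0.969). The tropomyosins Tpm2 and Tpm1 rose by 0.79 and 0.43 on their leads. All 4 probe sets of Tpm2 rose, by 0.58 to 0.97, whereas the other Tpm1 probe sets did not pass (0.22, 0.22 and 0.037). Mylk, the kinase that starts contraction, fell by 0.32 on its lead, while its 3 probe sets ranged up to 0.36. Itga8, an integrin subunit of mural cells and fibroblasts, fell by 0.87 on its lead and by 1.05 on its other probe set. Tropomyosins are also made outside muscle. Filamin A (Flna), likewise widely made, rose by 0.55 and Tgfb1i1 by 0.49, while nonmuscle myosin (Myh10) fell by 0.52 and Nexn by 0.47, all named after their values were seen.

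Among 12 regulators of smooth muscle and lung mesenchyme, 1 rose, 4 fell and 7 were not called. Without LC-HFD replicate 1 or 2 or LC-RD replicate 1 or 2, 0 rose, and without LC-HFD replicate 3 or any 1 LC-RD replicate 2 fell. With the replicate block and with the methods' t-test 0 rose and 2 fell. Srf was at 0.25 (limma adjusted p = 0.0501) and Myocd, the muscle partner of SRF, at 0.10 (adjusted p = 0.616) with low values (3.89 and 3.80). Mrtfa, the actin-regulated partner of SRF, rose by 0.47 (adjusted p = 0.0233), and Mrtfb gave -0.22 (adjusted p = 0.0853). Foxf1, a factor of lung mesenchyme and endothelium, fell by 0.51.

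The PDGF, Notch and angiopoietin axis was read from 20 measured genes of 21 listed, of which 1 rose, 7 fell and 12 were not called. This list mixes ligands, receptors and targets of several cell types, so its counts are not those of endothelial signals alone. Pdgfb, the ligand of PDGFRβ, rose on both probe sets, by 0.51 on its lead (7.86 ± 0.0351 against 7.35 ± 0.0350, limma adjusted p = 0.00287) and by 0.38 on the other. Pdgfa, Pdgfc and Pdgfd did not pass (0.051, 0.027 and -0.29). Angpt1, which mural cells make to stabilize endothelium, fell by 0.87 on its lead (adjusted p = 0.000720; -0.48 on the other probe set, adjusted p = 0.0906), and its endothelial receptor Tek, on the endothelial list too, by 0.38.

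Of the other Notch receptors, ligands and targets in that list, none rose on its lead probe set, and the ones named here were picked after their values were seen. Hes1, a target of Notch in many cell types, was at 7.42 ± 0.0415 in LC-HFD and 8.13 ± 0.0596 in LC-RD (-0.70, limma adjusted p = 0.00115). Rbpj, the DNA-binding partner of Notch receptors, fell by 0.67 on its lead, with its 3 probe sets from -0.74 to -0.14. The vascular targets Heyl, Hey1 and Hey2 gave -0.19, -0.34 and -0.28 and did not pass (adjusted p = 0.0945, 0.0693 and 0.125). Dll4, an endothelial ligand, fell by 0.28 (adjusted p = 0.0472), and Jag1 did not pass. The receptors Notch1 and Notch2 did not pass on their leads (0.20 and -0.16), with other probe sets at up to 0.70 and 0.58. Relatives of the KATP subunits did not pass either, with Kcnj11 at 0.27, Abcc8 at -0.18, Kcnj2 at -0.19 and Abcc1 at -0.19.

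Markers of neighboring cell types moved both ways on the same arrays. Among 12 endothelial genes 4 rose and 3 fell. Without LC-RD replicate 1 or 2 the increases numbered 2. The decreases numbered 1 without LC-RD replicate 1 and at most 2 without any 1 other array. With all arrays Tie1 (0.92) and Pecam1 (0.37) were among the increases and Erg (-0.57) among the decreases. Cdh5 and Kdr did not pass on their leads (0.15 and -0.11), while the other Cdh5 probe set rose by 1.03 (adjusted p = 0.00530). The mean of the endothelial list was 8.20 to 8.24 on the LC-RD arrays and 8.29 to 8.38 on the LC-HFD arrays. Among 12 fibroblast genes 2 rose and 6 fell, the latter 5 without LC-HFD replicate 1 and 3 without any 1 other array, and the mean of the list was 7.93 to 8.02 on the LC-HFD arrays and 8.09 to 8.16 on the LC-RD arrays. Col1a1 rose by 0.48 on its lead and had its other probe set at 1.94, Lum fell by 0.89 and Dcn by 0.25, and Col1a2 and Col3a1 did not pass (0.15 and 0.045). Of 6 myofibroblast genes 0 rose and 1 fell (Aspn, by 0.46), and Hhip, Lgr6 and Fgf18 did not pass. Without LC-HFD replicate 1, 2 of these 6 fell, and without any 1 other array 0 did. The part of these cell types in the changes of the mural genes was not tested.

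**Figure D4:**
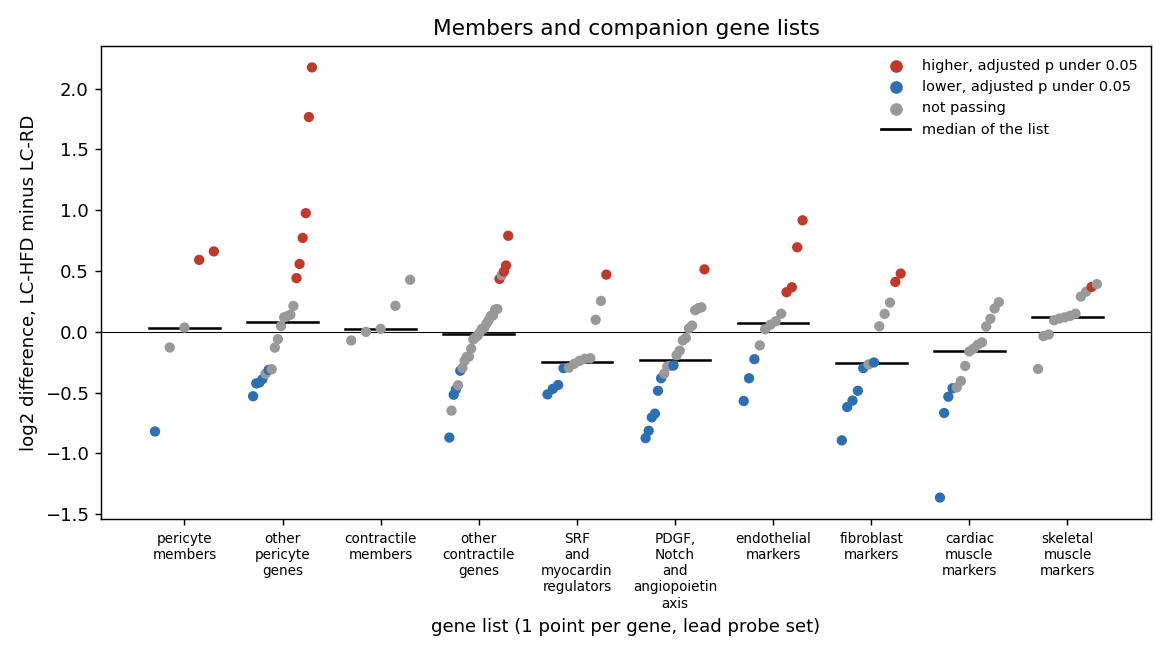
Log2 difference, LC-HFD minus LC-RD (vertical axis), of the lead probe set of each gene in 10 lists. Each point is 1 gene, red higher and blue lower at an adjusted p under 0.05, and black lines are medians. Other pericyte genes reach the highest value, 2.17 for Rgs5, and cardiac muscle genes the lowest, -1.36 for Myl7.

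The mean of the 5 pericyte leads was 6.78, 6.64 and 6.61 in LC-HFD and 6.56, 6.64 and 6.63 in LC-RD, and that of the 5 contractile leads was 7.21, 7.04 and 7.02 against 6.97, 6.98 and 6.97. LC-HFD replicate 1 was the highest in both. Over the 6 arrays and 9077 genes with a mean of at least 6, the genes most like the pericyte mean by Pearson's correlation were Ttc7b, Hs1bp3, Rpl7l1, Rnf144a and Marveld3 (r from 0.976 to 0.988). Those most like the contractile mean were Fto, Tmem248, Pld4, Cflar and Prdx2 (r from 0.985 to 0.997). The likeness is a description of 6 points in which 1 array stands highest.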

How the data were processed

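The authors hybridized lung RNA from 6 mice, 3 per diet, to Affymetrix Mouse Genome arrays, using 1 array per mouse. The authors deposited log2 values per probe set, made with GCRMA per the submitters' processing notes (version and settings not given in the sources used here) after reading the raw files in Partek software. Background correction by GCRMA compresses or stretches differences of dim probe sets. No column per sample was left unused (0), and array medians lay between 4.78 and 4.83. Between mice of a group the median SD was 0.137 (LC-HFD) and 0.0944 (LC-RD), so that precision rests on 3 mice a side.

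The deposited values were used as they stand, 64 control probe sets were set aside, and the other 45037 were tested with limma 3.58.1 in R 4.3.3 (two-sided, default settings) with Benjamini-Hochberg adjustment over all of them. Calls needed an adjusted p under 0.05. Names came from the platform annotation, and 34754 of 34958 probe sets of 1 gene were matched to a RefSeq symbol by Entrez ID. Probe sets of several genes (932) were not named. Pairs of probe sets of 1 gene were compared by their within-array difference with an exact permutation test. The fit was tested on simulated data with independent noise and planted shifts. No technical difference between the groups was simulated, so that test says nothing of array handling. Figures used Python 3.11.15 and matplotlib 3.10.9.

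Every member was named with all its probe sets. From each companion list the first 4 genes in listed order and the called genes with the largest rise and fall were named, and others only where stated. The members and lists were chosen with earlier results of these data known. Companion lists were written from general knowledge, and Pdgfra, Tcf21 and Tek each stand in 2 of them. Alternatives were the methods' t-test, quantile normalization, median centering, array weights, an intensity trend, minimum means of 4 and 6, a replicate block, an RNA integrity covariate (3' less 5' signal of control genes), the median over probe sets of a gene and each array left out in turn.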

Additional observations from a re-analysis of the deposited data

How the results depend on the processing

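Among the pericyte genes, leaving out any 1 array gave 4 to 5 probe sets higher and 1 lower, with 2 leads higher and 1 lower. With a mean of at least 6 only 4 of the 10 probe sets were left, of which 2 were higher (1 lead) and 0 lower, since Kcnj8 lay under the minimum. With the RNA integrity covariate 0 pericyte probe sets and 0 leads were lower. With the median over the probe sets of a gene, the median of the 5 differences moved from 0.035 to 0.60, because Abcc9 then rests on its middle probe set (0.60, adjusted p = 0.00122).

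For the contractile genes, calls lay close to the threshold. The count of probe sets higher (1) was 0 with the methods' t-test and with the covariate, and 2 with the intensity trend, median centering, a mean of at least 4 and the replicate block. The count of leads higher (0) was 1 with the intensity trend, quantile normalization, median centering, a mean of at least 6, the replicate block and the median over probe sets, and 2 with a mean of at least 4, always Des and in the last case also Cnn1. The share passing among all features also moved with the setting. It was 42.5% at a mean of at least 4, 55% at 6 and 30.6% with the intensity trend. Median centering gave 25.1%, quantile normalization 23.3%, the replicate block 17.6% and the median over probe sets 29.2%. Array weights gave 1 lower (Acta2 1444105_at, adjusted p = 0.0465). The median lead difference was 0.17 with the covariate. Leaving out 1 array gave 0 to 1 higher, 0 to 1 lower and 0 to 1 leads higher.

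Several differences that did not pass with all arrays changed sign. The Acta2 lead was at 0.045 with array weights, 0.030 after quantile normalization, 0.018 after median centering and 0.13 with the covariate, and from -0.045 to 0.075 with 1 array left out. Acta2 1456658_at was at -0.074 after quantile normalization. For Pdgfrb the median over its probe sets, used in place of the lead, gave 0.024, next to -0.13 on the lead itself. With 1 array left out the Abcc9 lead ranged from -0.025 to 0.078 and the Myh11 lead from -0.13 to 0.10. The causes were not tested. No difference that passed with all arrays changed sign.

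Same-numbered samples of the groups did not deviate together (correlations of -0.043, -0.093 and -0.030), so the numbers were not taken as pairs. The replicate block left the pericyte counts at 5 higher and 1 lower, and the contractile counts are given above. Of 352 counts for the companion lists 94 moved by over 1.5 times, 12 of them with the covariate. Over all probe sets 25% passed, and 7.9% did with the covariate and 55% at a mean of at least 6. Dim probe sets, such as the 4 of 19 with means under 4, limit what can be read from Abcc9, Acta2 and Des.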
